A study of Tursiops truncatus with 76 samples.

Results

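The 2'-5'-oligoadenylate synthetase (OAS) family was represented in these dolphin blood transcriptomes by OAS1, OAS2 and OASL, 3 of the 24094 loci of the deposited expression table. Loci in that table carry positions only, so the members were found by matching positions with the locus and symbol pairs in the study's supplementary tables, which named 3144 loci. All 3 members counted as expressed, as did 11485 loci in all, meaning that the mean level reached 1 FPKM and that 50% or more of the samples had a value above 0. FPKM is the number of sequenced fragments scaled to transcript length and to library size, so levels of different genes can be set side by side.

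Whole blood was collected from wild bottlenose dolphins (Tursiops truncatus) during health assessments at Barataria Bay, Louisiana (BAR), which was oiled by the Deepwater Horizon spill, and at Sarasota Bay, Florida (SAR), a reference site. There were 60 BAR samples, 12 from each of June 2013, June 2014, June 2017, September 2017 and July 2018, and 16 SAR samples, 8 from each of May 2014 and May 2016. The samples came from 71 animals, since 5 BAR animals were sampled on 2 occasions, and comprised 40 females and 20 males at BAR and 8 of each sex at SAR. Birth relative to the spill, pregnancy, pregnancy outcome and an inflammation panel came from the study's sample table. The animals were wild, untreated and of mixed age: 23 adults, 33 subadults and 4 calves at BAR, 11 adults and 5 subadults at SAR. No SAR collection shared a month with a BAR collection and 2014 was the only year sampled at both sites, so site and season cannot be told apart.

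OAS enzymes are induced by interferon and sense double-stranded RNA, a signature of viral replication. When they bind it, OAS1 and OAS2 link ATP into short 2'-5' adenylate chains that act as messengers of the antiviral response within the cell. Human OASL lacks this synthetase activity and instead enhances signalling by the RNA sensor RIG-I. In blood, these genes are widely used as readouts of an interferon response in leukocytes.

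The members lay on a single scaffold of the Tur_tru v1 assembly, NW_017844293.1. OAS2 was annotated at NW_017844293.1:8664944-8680676 (15733 bases), and OAS1 at 8691563-8694227 (2665 bases), with 10886 bases between them. OASL was annotated at 10401840-10418697 (16858 bases), 1707612 bases beyond OAS1. An unnamed locus at 8688253-8690846 lay between OAS2 and OAS1, with a mean of 4.66 FPKM and a value above 0 in 70 of the 76 samples. A further unnamed locus, nested inside OAS1 at 8693161-8694067, was listed at 0 in every sample. Reads of related or overlapping gene models can be divided between them by the counting, so the levels of OAS1 and OAS2 are less certain than their decimals imply. The RefSeq gene list of another assembly of the species held OAS2 and OASL but no gene of the symbol OAS1. The name of the OAS1 locus therefore rests on the study alone. The nearest named loci were SLC8B1 beside OAS2 and ANKRD13A beyond OASL.

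A limit on what these loci can show comes from how they got their symbols. OAS1 was named only in the study's list of loci differing between the sites, OASL in that list and in the lists for BAR years, and OAS2 in the co-expression module, BAR year and pregnancy lists. The site contrast for OAS1 and OASL, the year contrast for OAS2 and OASL and the pregnancy contrast for OAS2 are therefore descriptions of loci chosen with those contrasts in view, and their tests are not independent evidence. The p-values given below came from limma on log2(FPKM + 1) and were adjusted by the Benjamini-Hochberg method over all expressed loci of a comparison, with a threshold of 0.05. Differences are on this log2 scale, which understates the change of low values.

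All 3 members had values above 0 in each of the 76 samples, with similar medians in BAR and a wide spread between animals. OAS1, an enzyme, had a median of 11.1 FPKM in the 60 BAR samples, from 0.162 to 94.8 FPKM. The SAR median of OAS1 was 2.68 FPKM, from 0.153 to 7.31 FPKM (n = 16). In the FPKM as deposited, no SAR sample reached the BAR median of OAS1. In these values 41 of 60 BAR samples lay above the highest SAR sample, although 7 BAR samples lay below the SAR median. The counts for OAS2 and OASL below are also from FPKM as deposited. After the libraries were scaled by median ratios, SAR May 2014 replicate 1 (9.86 FPKM of OAS1) lay above the BAR median. Fewer BAR samples then lay above every SAR sample.

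OAS2, the larger synthetase, had a BAR median of 10.2 FPKM, from 1.53 to 98.1 FPKM, and a SAR median of 5.58 FPKM, from 0.466 to 18.7 FPKM. The sites overlapped broadly for OAS2: 11 of 60 BAR samples exceeded every SAR sample, and 4 of 16 SAR samples exceeded the BAR median. OASL had a BAR median of 8.96 FPKM, from 2.17 to 74.4 FPKM, and a SAR median of 3.56 FPKM, from 1.28 to 22.7 FPKM. For OASL, 58 of 60 BAR samples were above the SAR median, while 3 exceeded the highest SAR sample, BAR June 2013 replicate 8 being the farthest above it. The standard deviation (SD) between BAR samples was as large as the mean for OAS1 (14.1 ± 14.8 FPKM, n = 60) and OAS2 (14.5 ± 15.4 FPKM), and somewhat smaller for OASL (12.2 ± 10.1 FPKM). In the SAR samples the means were 2.58 ± 2.02 FPKM for OAS1, 6.57 ± 4.99 FPKM for OAS2 and 5.69 ± 5.27 FPKM for OASL (SD, n = 16).

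**Figure D1:**
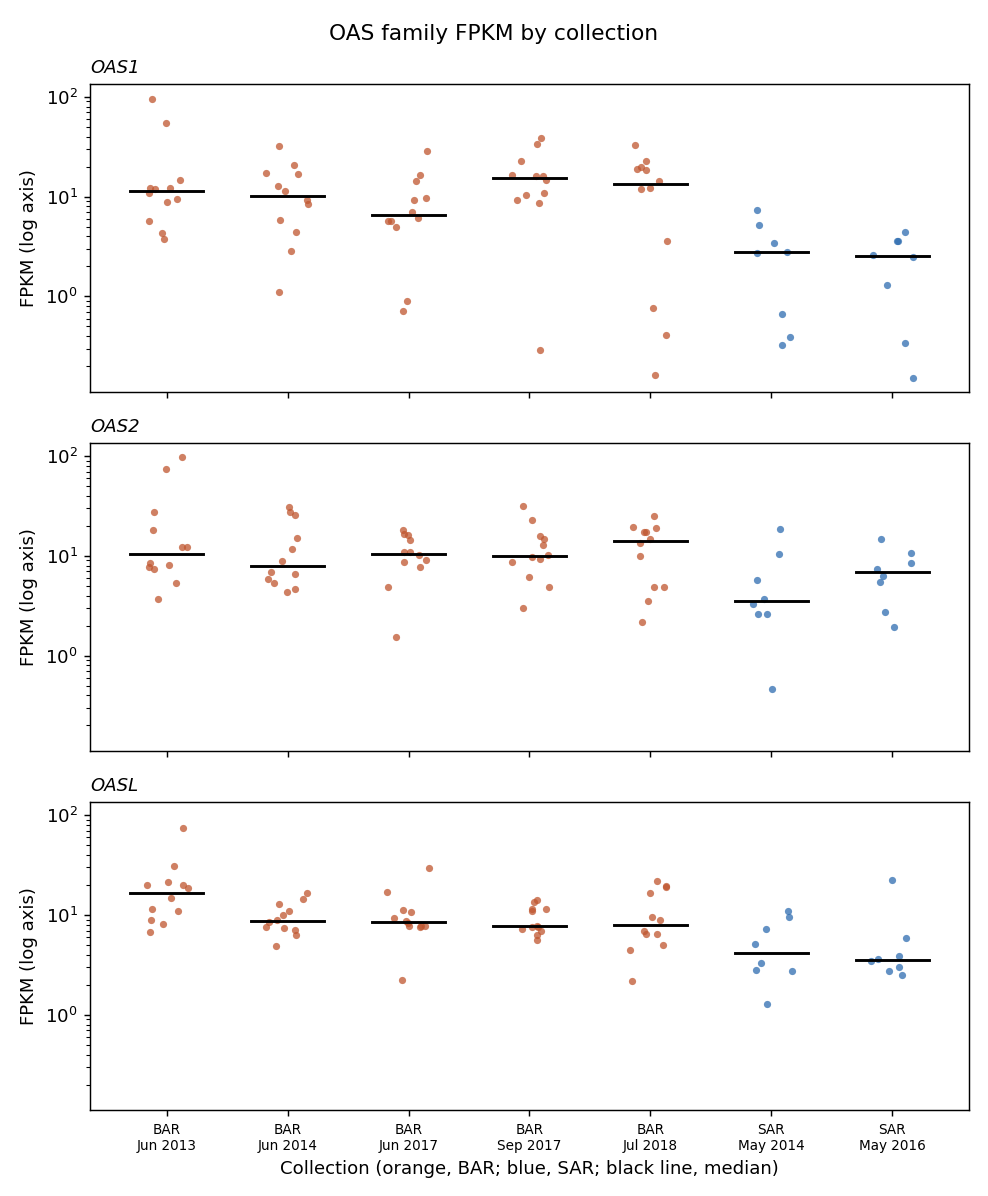
FPKM of OAS1, OAS2 and OASL in each sample on a log axis, by collection (BAR orange, SAR blue, black line the median). Medians of OAS1 were 6.52 to 15.4 FPKM in the BAR collections and 2.54 and 2.78 FPKM in the SAR collections. In 7 of 60 BAR samples and 6 of 16 SAR samples OAS1 was at most 1.303 FPKM.

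The first comparison asked whether the members differed between the oiled and the reference site. In the FPKM as deposited, all 3 were higher in BAR. OAS1 was higher by 1.79 on the log2 scale (SE 0.34, 95% interval 1.12 to 2.47, adjusted p = 2.9e-05). This is a 3.47-fold difference of FPKM + 1, the scale of the folds given next, and not of FPKM itself. OASL was higher by 1.02 (SE 0.21, interval 0.59 to 1.44, adjusted p = 8.7e-05), or 2.02-fold. OAS2 was higher by 0.94 (SE 0.27, interval 0.40 to 1.48, adjusted p = 0.0021), or 1.9-fold. These calls were common, because 73% of all expressed loci were called in this comparison and 70.4% were higher in BAR. The median difference over all loci was 0.394, so the libraries of the sites differed as a whole, and each member exceeded that median by 0.55 to 1.40.

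Scaling the libraries by median ratios brought the median over all loci to 0.014 and the share of loci called to 7.84%, with 2.19% higher in BAR. OAS1 remained higher by 1.47 (adjusted p = 0.0013) and OASL by 0.64 (adjusted p = 0.031). OAS2 no longer passed, with a difference of 0.57 (interval 0.04 to 1.09, adjusted p = 0.20). The size of these site differences therefore depended on the scaling, whereas their direction did not. Among the 2014 samples alone, with scaling, OAS1 differed by 1.10 (adjusted p = 0.11), OAS2 by 0.46 (adjusted p = 0.53) and OASL by 0.22 (adjusted p = 0.65), and none of the 3 passed.

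In whole blood, fewer cells of a type and less RNA per cell cannot be told apart. Markers of red cells were lower in BAR: all 6 located markers passed, their median difference was -0.95, and their summed level ranged from 3985 to 44790 FPKM in BAR and from 16050 to 54310 FPKM in SAR. Of the leukocyte markers, 2 of 2 for monocytes and 3 of 3 for T cells were higher in BAR as deposited, and none of these passed after scaling. Of the other blood cell markers, 1 of 5 for neutrophils, 1 of 4 for B cells and 1 of 3 for platelets were higher as deposited and none after scaling. Of all loci, 70.4% were higher and 2.54% lower in BAR as deposited, and 2.19% were higher after scaling. Higher monocyte and T cell markers as deposited therefore do not set them apart from most loci. Of 43 listed markers 24 could be located, through the study's lists for site, modules, years and pregnancy, so they were partly chosen on these contrasts. Of a list of 5 cytotoxic cell markers, the 1 that was located did not pass, with a difference of -0.092. Its median was 20.6 FPKM in BAR (4.39 to 129) and 23.1 FPKM in SAR (5.41 to 192). GZMA, a granule protease gene outside that list, had means of 29.8 FPKM in BAR and 20.2 FPKM in SAR. The 2 monocyte markers summed to between 49.8 and 332 FPKM in BAR and between 35.0 and 212 FPKM in SAR, and the 3 T cell markers to between 88.8 and 527 FPKM and between 58.5 and 348 FPKM. None of these markers was listed at 0 throughout either site. The part of cell composition in the site differences of the OAS family was not tested.

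Set against SAR by collection, OAS1 was higher in each of the 5 BAR collections, by 2.16 in June 2013, 1.74 in June 2014, 1.34 in June 2017, 2.183 in September 2017 and 1.54 in July 2018 (adjusted p from 5e-04 to 0.016). Of all loci, 48.1%, 70.2%, 45.7%, 46.5% and 36% were called in these 5 contrasts, which share their SAR samples. OASL was also higher in each collection, by 1.66 in June 2013 (adjusted p = 5.8e-05) and by 0.83 to 0.89 in the other 4 (adjusted p at most 0.022). OAS2 was higher in June 2013 (1.29, adjusted p = 0.0054), June 2014 (0.86, adjusted p = 0.035) and September 2017 (0.91, adjusted p = 0.039), whereas June 2017 (0.77, adjusted p = 0.079) and July 2018 (0.88, adjusted p = 0.055) did not pass. Apart from June 2013, these OAS2 calls turned on single libraries. The June 2014 call was lost without any one of BAR June 2014 replicates 1, 3, 8 and 9, SAR May 2014 replicate 4 and SAR May 2016 replicates 5 and 7 (0.72 to 0.81, adjusted p up to 0.0823). The September 2017 call was lost without any one of BAR September 2017 replicates 1, 7, 10, 11 and 12, SAR May 2014 replicates 2, 4, 5 and 8 and SAR May 2016 replicates 5 and 7 (0.77 to 0.89, adjusted p up to 0.0835). June 2017 passed without BAR June 2017 replicate 7 (0.96, adjusted p = 0.0285) or SAR May 2014 replicate 1 (0.91, adjusted p = 0.0382). July 2018 passed without any one of BAR June 2013 replicates 7 and 8, BAR June 2017 replicate 7, BAR July 2018 replicates 1, 7, 9 and 11, SAR May 2014 replicates 1, 3 and 6 and SAR May 2016 replicates 2, 3 and 8 (0.88 to 1.045, adjusted p from 0.0262). No call of OAS1 or OASL by collection was lost without any one library. With scaling, OAS1 still passed in June 2013 (1.85, adjusted p = 0.015) and September 2017 (1.91, adjusted p = 0.0029) and OASL in June 2013 (1.28, adjusted p = 0.0033), and the remaining 12 member contrasts did not pass. The shares of all loci called after scaling were 3%, 5.94%, 6.52%, 6.87% and 4.15%, in the order of the collections.

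Between the sexes, the site difference of OAS1 was 2.14 in females and 1.43 in males, and that of OASL 0.76 in females and 1.27 in males. OASL separated the males most clearly in the FPKM as deposited. There, 18 of 20 BAR males lay above the highest of the 8 SAR males, at 7.31 FPKM. After median-ratio scaling that SAR male had 10.6 FPKM of OASL, and most BAR males lay below it. In the females, as deposited, the highest SAR sample of OASL was 22.7 FPKM, and 2 of 40 BAR females lay above it. The difference of the site effect between females and males was 0.71 for OAS1, 0.07 for OAS2 and -0.51 for OASL, and none passed (adjusted p = 1 for each). In that interaction 0% of loci were called by limma, and 336 of 11485 had an unadjusted p under 0.05.

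**Figure D2:**
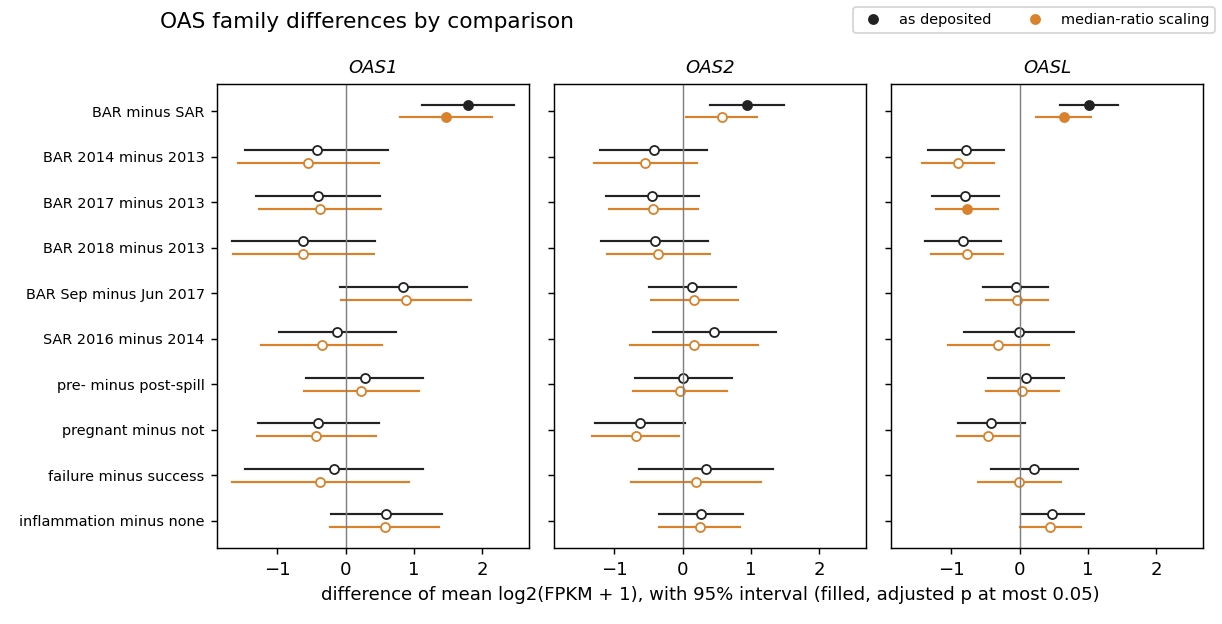
Differences of mean log2(FPKM + 1) with 95% intervals for OAS1, OAS2 and OASL in 10 comparisons, from FPKM as deposited (black) and after median-ratio scaling (orange); filled points had an adjusted p of at most 0.05. The site difference passed for the 3 members as deposited and for OAS1 and OASL after scaling, and the one other filled point is OASL in 2017 minus 2013 after scaling.

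The balance between the loci named OAS1 and OAS2 also differed between the sites. Within a sample, the log2 level of OAS1 minus that of OAS2 does not depend on library scaling apart from the pseudocount. It averaged -0.17 ± 0.79 in BAR and -1.03 ± 1.09 in SAR (SD, n = 60 and 16), a difference of 0.85 (two-sided permutation test, p = 0.00058, Benjamini-Hochberg adjusted p = 0.0087 over 15 member ratio tests). OAS1 exceeded OAS2 in 29 of 60 BAR samples and in 3 of 16 SAR samples. Since OAS1 was named from a list of site differences, this test is not independent of how the locus was chosen. The mean was lower in both SAR collections (-0.73 in 2014 and -1.32 in 2016) than in any BAR collection (-0.46 to 0.25). This call rested on few SAR libraries: without SAR May 2016 replicate 4, where OAS1 was 0.153 FPKM, the difference was 0.74 and the permutation adjusted p was 0.052. The site difference of OAS1 minus OASL was 0.78 (permutation adjusted p = 0.13) and that of OAS2 minus OASL was -0.07 (permutation adjusted p = 0.95), and neither passed.

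Across the 60 BAR samples OAS1 and OAS2 varied together. These came from fewer animals, 5 of them sampled on 2 occasions, and the permutations treated every sample as independent. Their correlation over samples was Pearson's r = 0.81 and Spearman's rho = 0.82 (permutation p = 1e-05 for each, the smallest that the resampling could give, adjusted p = 6e-05 over 6 pairs), and r = 0.79 without the 2 samples farthest from the OAS1 median. Within the 5 BAR collections r was 0.77 to 0.93 (n = 12 each). OASL followed the enzymes less closely. Its correlation with OAS1 was r = 0.49 and rho = 0.38 (permutation adjusted p = 0.00033 and 0.0095), 0.44 without the 2 farthest samples, and 0.02 to 0.80 within collections. Its correlation with OAS2 was r = 0.46 and rho = 0.31 (permutation adjusted p = 0.00064 and 0.035) but r = 0.29 without BAR June 2013 replicates 7 and 8, so this relation leaned on those 2 samples, and within collections r ranged from -0.14 to 0.75. In the 16 SAR samples no pair passed: r was 0.33 for OAS1 with OAS2, 0.27 for OAS1 with OASL and -0.03 for OAS2 with OASL (permutation adjusted p = 0.32, 0.38 and 0.91). The difference between the sites in these correlations was not tested.

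**Figure D3:**
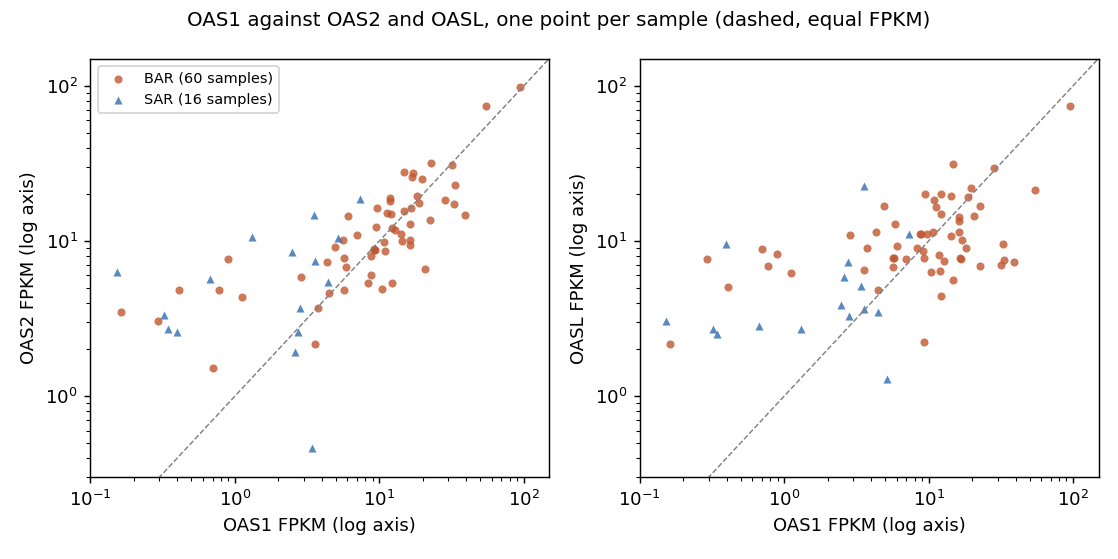
OAS1 FPKM of each sample against OAS2 (left) and OASL (right), both axes logarithmic, with circles for 60 BAR and triangles for 16 SAR samples and a dashed line at equal FPKM. OAS1 and OAS2 lay along the dashed line in BAR (r = 0.81), whereas 13 of 16 SAR samples had more OAS2 than OAS1.

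The genes whose levels most resembled each member were taken as the 5 named loci with the highest Spearman rho over the 60 BAR samples after scaling, out of 2954 candidates. For OAS1 these were OAS2 (0.75), RNF213, a ubiquitin ligase (0.64), RSAD2, the antiviral enzyme viperin (0.61), EIF2AK2, the double-stranded RNA kinase PKR (0.60), and SIGLEC1, a sialic acid receptor of macrophages (0.57). For OAS2 they were RNF213 (0.79), PARP12 (0.78), RSAD2 (0.77), OAS1 (0.75) and RTP4 (0.75). OASL had a different set: EPSTI1 (0.61), GZMA, a granule protease of cytotoxic lymphocytes (0.60), LY6E (0.56), LGALS3BP (0.49) and GBP4, a guanylate-binding protein (0.48). Over all 11484 other loci, OASL ranked 201 by likeness to OAS1 (rho = 0.33) and 855 by likeness to OAS2 (rho = 0.23). EPSTI1, LGALS3BP and GBP4 were on the interferon list described next, as were RSAD2, EIF2AK2 and RTP4. The candidates had symbols only through the study's lists, which include co-expression modules of these same samples. They were thus partly chosen for varying together, and OAS2, unlike OAS1 and OASL, was named in a module. These samples also share processing and cell mixtures, so the values are descriptions and carry no p.

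Other genes of the interferon response were taken from a list of 63 genes, of which 28 could be located, at 29 loci. These loci could be located only because the study's tables of site differences, modules, BAR years and pregnancy gave them symbols, so the counts and medians below, set beside all loci, describe a set partly chosen on these contrasts. In the site comparison as deposited, 29 of 29 loci were higher in BAR, with a median difference of 0.776 beside 0.394 over all loci. After scaling 6 of 29 were higher and none lower, with a median of 0.338 beside 0.014. The largest listed differences that passed were DTX3L, a ubiquitin ligase partner of PARP9 (1.27, SE 0.24, adjusted p = 2.4e-05), and GBP6, a guanylate-binding protein (1.04, SE 0.29, adjusted p = 0.0018). As deposited, OAS1 had a larger site difference than any of the 29 listed loci, while OAS2 and OASL had smaller ones than DTX3L and GBP6. By collection, 27 of the 29 loci passed as higher in June 2013, 26 in June 2014, 18 in June 2017, 14 in September 2017 and 24 in July 2018, where 47.3%, 68.6%, 45%, 43.6% and 33.7% of all loci were higher. The September 2017 count was thus near the share of all loci. After scaling 7 of 29 passed as higher in June 2013, 2 in June 2017 and none in the other 3 collections, beside 1.1%, 1.43%, 2.43%, 1.74% and 0.331% of all loci in the order of the collections. GBP6 (1.69, adjusted p = 0.0011) and DHX58, the RNA sensor LGP2 (1.47, adjusted p = 0.00035), led in June 2013 as deposited.

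The BAR samples were next compared across years. June 2013 had the highest median of OASL, 16.7 FPKM (6.77 to 74.4), beside 8.76 (4.85 to 16.6) in 2014, 8.03 (2.24 to 29.6) in 2017 and 7.94 (2.17 to 22.01) in 2018. In 2013, 6 of 12 samples exceeded the highest 2014 sample, and 2 of 12 exceeded the highest of 2017 and of 2018. The medians of OAS1 and OAS2 showed no such order. Those of OAS1 were 11.4 FPKM in 2013, 10.2 in 2014, 10.0 in 2017 and 13.2 in 2018, and those of OAS2 were 10.4, 7.83, 10.2 and 14.2 FPKM.

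The highest values of OAS1 and OAS2 in 2013 came from 2 females. BAR June 2013 replicate 8 had 94.8 FPKM of OAS1, 98.1 of OAS2 and 74.4 of OASL, the highest value of each gene among the 76 samples. BAR June 2013 replicate 7 had 54.9 FPKM of OAS1 and 73.6 of OAS2, second in both, and 21.4 of OASL. The next highest OASL of 2013 after replicate 8 was 31.3 FPKM in replicate 3, a male with 14.8 FPKM of OAS1 and 27.6 of OAS2. Both females were non-pregnant, and replicate 8 was positive on the inflammation panel. Means in 2013 were 20.3 ± 27.1 FPKM for OAS1, 23.6 ± 30.3 FPKM for OAS2 and 20.6 ± 18.4 FPKM for OASL (SD, n = 12), beside 12.6 ± 9.52, 12.2 ± 7.55 and 10.0 ± 5.21 FPKM over the 48 later samples.

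No year contrast of a member passed the threshold in the FPKM as deposited. The difference from 2013 was -0.78 in 2014 (interval -1.34 to -0.22, unadjusted p = 0.0068), -0.80 in 2017 (-1.28 to -0.31, unadjusted p = 0.0017) and -0.83 in 2018 (-1.39 to -0.27, unadjusted p = 0.0044) for OASL, with adjusted p of 0.49, 0.13 and 0.62. Limma called 0% of loci in these 3 contrasts, while 990, 1565 and 590 of 11582 loci had an unadjusted p under 0.05. After scaling, OASL in 2017 minus 2013 passed (-0.78, adjusted p = 0.033), beside 5.05% of all loci, and 2014 (-0.90, adjusted p = 0.66) and 2018 (-0.77, adjusted p = 0.45) did not. For OAS1 and OAS2 the differences from 2013 were -0.40 to -0.62 and -0.41 to -0.45, with intervals that included 0. Single libraries moved these differences by more than 1.5 times. Without BAR June 2013 replicate 8, OAS1 differed by -0.17 in 2014 and -0.15 in 2017, and OAS2 by -0.18, -0.20 and -0.16 in 2014, 2017 and 2018. Without BAR July 2018 replicate 11, OAS1 in 2018 minus 2013 was -0.36. Contrasts among 2014, 2017 and 2018 were -0.22 to 0.04 for the 3 members, with 1.16% of loci called in 2017 minus 2014. A test of any difference among the 4 years gave an adjusted p of 0.85 for OAS1, 0.79 for OAS2 and 0.17 for OASL (unadjusted p = 0.0074), and 0.138% of loci were called. After scaling, OASL had an adjusted p of 0.087 in that test, and 1.95% of loci were called.

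Most loci of the interferon list also had negative differences from 2013. Of the 29 loci, 1 had a positive difference in 2014 minus 2013, 2 in 2017 minus 2013 and 2 in 2018 minus 2013, with medians of -0.214, -0.340 and -0.354 beside 0.110, -0.021 and -0.056 over all loci, and none of the 29 passed as deposited. After scaling, 4 were lower and 1 was higher in 2017 than in 2013. The 1 located marker of the cytotoxic list had a median of 31.5 FPKM in 2013 (14.2 to 129) and 20.5 FPKM in the later samples (4.39 to 80.3). Medians of the other summed marker sets, 2013 first, were 112 and 147 FPKM for monocytes and 1915 and 1939 FPKM for neutrophils. For B cells they were 293 and 336 FPKM, and for T cells 198.1 and 198.7 FPKM. Red cell markers had 22200 and 17150 FPKM and platelet markers 3916 and 4784 FPKM. The part of cell composition in the OASL levels was not tested.

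Within single sites, OAS1 was 10.1 to 18.0 FPKM in the middle 50% of September 2017 samples and 5.45 to 10.8 FPKM in June 2017, with medians of 15.4 and 6.52 FPKM. The difference was 0.84 (interval -0.08 to 1.77, adjusted p = 0.70), with 0.14 for OAS2 and -0.06 for OASL. By limma 0% of loci were called there, and 905 of 11550 had an unadjusted p under 0.05. At SAR, where 17.2% of loci were called between May 2014 and May 2016, no member passed: the 2016 minus 2014 differences were -0.12 for OAS1, 0.46 for OAS2 and -0.01 for OASL (adjusted p = 0.85, 0.46 and 0.99). The one listed interferon gene past the threshold at SAR was IFNAR1, a chain of the type I interferon receptor, higher in 2016 by 0.75 (adjusted p = 0.015). The intervals of the SAR differences reached from -0.98 to 0.74 for OAS1, -0.44 to 1.36 for OAS2 and -0.81 to 0.80 for OASL.

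For 5 BAR animals the same individual was sampled on 2 occasions, which sets a scale for change within an animal. The second minus the first sample was -2.86 to 1.53 on the log2(FPKM + 1) scale for OAS1, -1.48 to 0.76 for OAS2 and -0.65 to 0.38 for OASL. One male had 11.8 FPKM of OAS1 and 18.2 FPKM of OAS2 in June 2013 and 2.86 and 5.90 FPKM in June 2014, while its OASL was 8.15 and then 10.9 FPKM. A second male had 10.8 FPKM of OAS1 in September 2017 and 33.0 FPKM in July 2018. The change had the same sign for both enzymes in each of the 5 animals, and the opposite sign for OASL in 4 of them.

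Birth cohort asked whether animals born before the spill differed from those born after it. Of the BAR samples 46 were pre-spill, 9 post-spill and 5 undetermined, and 6 of the 9 post-spill samples came from June 2017, so cohort and collection were partly confounded. All 9 post-spill samples were calves or subadults, whereas 23 of the pre-spill samples were adults. The median of OAS1 was 12.2 FPKM pre-spill (0.162 to 94.8) and 9.19 FPKM post-spill (0.707 to 33.4). The median of OAS2 was 11.4 and 11.0 FPKM, and that of OASL 10.4 and 8.56 FPKM. The pre-spill minus post-spill differences of 0.28 for OAS1 (interval -0.58 to 1.13), 0.01 for OAS2 (-0.70 to 0.72) and 0.09 for OASL (-0.46 to 0.64) did not pass in limma (adjusted p = 0.79, 0.99 and 0.90), in a comparison where 0.76% of loci were called. None of the 29 interferon loci passed either, and 14 had a positive difference.

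Pregnancy compared 21 pregnant with 20 non-pregnant females, 20 and 15 of them from BAR. The medians were lower in pregnant females for each member: 8.79 against 10.6 FPKM for OAS1, 7.35 against 10.4 FPKM for OAS2 and 7.66 against 10.6 FPKM for OASL. The groups overlapped, with 3 (OAS1), 2 (OAS2) and 3 (OASL) of the 20 non-pregnant females above every pregnant female. The differences of -0.40 for OAS1 (interval -1.28 to 0.48), -0.63 for OAS2 (-1.29 to 0.03, unadjusted p = 0.062) and -0.42 for OASL (-0.91 to 0.07) did not pass (limma adjusted p = 0.92, 0.84 and 0.84). Of all loci 0.00865% were called, which is 1 of 11558. Within BAR the differences were -1.004, -0.70 and -0.56 (adjusted p = 0.86 for each), and with collection as a covariate they were -0.83, -0.86 and -0.38 (adjusted p = 0.96 for each). Of the 29 interferon loci none passed and 2 had a positive difference, with a median of -0.270 beside 0.041 over all loci.

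Pregnancy outcome was known for 13 failures and 6 successes. OAS1 had a median of 8.38 FPKM in failures and 6.45 FPKM in successes, OAS2 of 6.82 and 6.53 FPKM and OASL of 8.96 and 6.76 FPKM. Failure minus success differed by -0.18 for OAS1, 0.34 for OAS2 and 0.22 for OASL, with intervals that all included 0 (limma adjusted p = 0.91, 0.78 and 0.79). By limma 0% of loci were called, and 634 of 11576 had an unadjusted p under 0.05.

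Inflammation was compared within BAR, 12 positive samples against 48 negative ones. The medians were higher in the positive samples, 14.3 against 9.49 FPKM for OAS1, 11.7 against 9.99 FPKM for OAS2 and 13.9 against 8.88 FPKM for OASL. The groups overlapped across nearly their whole ranges, since 1 positive sample, BAR June 2013 replicate 8, lay above every negative sample for each gene. The differences of 0.59 for OAS1 (interval -0.22 to 1.40), 0.27 for OAS2 (-0.34 to 0.89) and 0.48 for OASL (0.01 to 0.94, unadjusted p = 0.044) did not pass in limma (adjusted p = 0.87, 0.93 and 0.79). Without BAR June 2013 replicate 8 they were 0.35, 0.013 and 0.26, and without BAR July 2018 replicate 11, a positive sample, 0.92, 0.42 and 0.68. The direction also varied by collection for OAS1 and OAS2. In September 2017 the positive samples had lower means than the negative ones (13.4 against 17.1 FPKM of OAS1 and 8.90 against 13.2 of OAS2). The same held in July 2018 (7.25 against 14.1 and 6.78 against 13.9), with 2 positive samples in each of these collections. For OASL the positive samples had the higher mean in every collection, though narrowly in September 2017 (9.86 against 9.09 FPKM) and July 2018 (10.84 against 10.58 FPKM). Here too 0% of loci were called, and 712 of 11582 had an unadjusted p under 0.05. All 29 interferon loci had a positive difference and none passed, with a median of 0.283 beside 0.019 over all loci. The 1 located marker of the cytotoxic list had a median of 34.5 FPKM in the positive samples (10.9 to 72.2) and 19.1 FPKM in the negative samples (4.39 to 129). Medians of the other summed marker sets, positive samples first, were 149 and 143 FPKM for monocytes and 2179 and 1882 FPKM for neutrophils. For B cells they were 279 and 349 FPKM, and for T cells 163 and 201 FPKM. Red cell markers had 22850 and 18190 FPKM and platelet markers 4706 and 4380 FPKM. The part of cell composition in the OASL values was not tested.

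**Figure D4:**
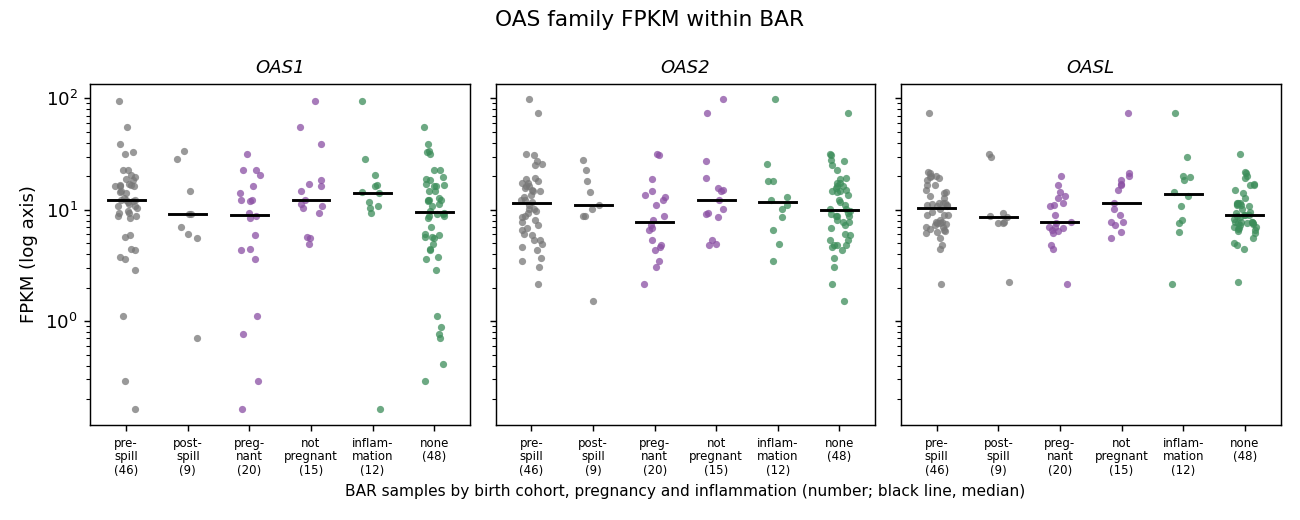
FPKM of OAS1, OAS2 and OASL in BAR samples on a log axis by birth cohort (46 pre-spill and 9 post-spill), pregnancy (20 pregnant and 15 not) and inflammation (12 positive and 48 not), with medians as black lines. The groups of each pair overlapped for all 3 genes, and none of these differences passed the adjusted threshold.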

How the data were processed

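Blood in PAXgene tubes was sequenced by the authors (NEBNext Ultra Directional libraries, NovaSeq). They trimmed reads with Trimmomatic 0.33, aligned them with TopHat2 2.1.1 and Bowtie2 to Tur_tru v1, masked hemoglobin transcripts and deposited FPKM from Cufflinks 2.2.1. The deposited FPKM hold no read counts. From the lowest values of sparsely detected loci, relative depth was estimated at 0.702 to 1.47, with 86.2% of these values within 5% of the fit. The loci used ranged from 4 in SAR May 2014 replicate 6 to 408 in BAR September 2017 replicate 6, so the estimate was rough for some libraries. Values under 1 FPKM are the least precise.

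Here FPKM + 1 was put on the log2 scale and tested with limma 3.58.1 (trend, two-sided) in R 4.3.3, without covariates, over loci whose mean reached 1 FPKM and whose values were above 0 in 50% or more of the samples in a comparison. Ratios and correlations used 100000 resamples. Sites and collections came from the labels, and cohort, pregnancy, outcome and inflammation from the study's sample table, joined on field number and date. Undetermined samples were left out. Named genes were the 3 members, at most 2 listed interferon genes per direction with the largest passing differences, and the 5 closest loci. One listed gene that this rule names is not reported here. The members and lists were chosen with earlier results of these data known. Alternatives were another pseudocount, no filter, median-ratio and quantile scaling, subsets, covariates, the animal as a block and each library left out. The limma script was tested on simulated data.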

Additional observations from a re-analysis of the deposited data

Results flagged for a closer look

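OASL was 22.7 FPKM in SAR May 2016 replicate 3, far above the next of the 8 samples of that collection at 5.83 FPKM. OASL was 13.4 FPKM in BAR September 2017 replicate 12, far above the next of the 6 females with a successful pregnancy at 7.77 FPKM. The highest and lowest values of 12 sets of 4 to 10 samples were examined, 24 ends in all, to find these 2. The rate of about 1 in 20 groups by which chance gives such gaps holds for normally distributed values, and these FPKM were right-skewed, so their chance rate was not tested.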

How the results depend on the processing

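Of the 443 values recomputed under alternatives, 361 were unchanged. For differences and correlations this means the same direction and side of the threshold, and for counts of called loci a count of like size. The causes of the changes below were not tested, and fits that join a restriction with scaling, the scaled collection contrasts and the ratios without 1 library were chosen after seeing the data. Site differences (log2): OAS2 no longer passed with median-ratio scaling (0.57), quantile normalization (0.55), males only (0.93), or scaling without BAR June 2013 (0.48) or in 2014 only (0.46), and OASL did not pass in the latter pair (0.48 and 0.22) nor OAS1 in the last (1.10). Loci called numbered 8379 as deposited, 900 with scaling, 827 with quantile normalization, 918 in males, 983 with scaling without BAR June 2013 and 1248 with scaling in 2014. Calls lost with scaling by collection were OAS1 in June 2014 (1.303), June 2017 (1.03) and July 2018 (1.24), OAS2 in June 2013 (0.92), June 2014 (0.38) and September 2017 (0.58), and OASL in June 2014 (0.39), June 2017 (0.53), September 2017 (0.49) and July 2018 (0.52). OASL in 2017 minus 2013 passed with scaling (-0.78) and quantile normalization (-0.77). Loci called in any BAR year went from 16 to 10 without the filter, 226 with scaling, 168 with quantile normalization and 62 with the animal as a block, which changed no call of a member. Other counts moved from 0 to 3 (June against September 2017, quantile), from 1902 to 375 and 121 (SAR years, scaling and quantile), from 88 to 321, 297, 1 and 0 (cohort, with scaling, quantile, June 2017 only and collection as a covariate), from 1 to 0 (pregnancy, BAR only, and 0 with the covariate) and from 0 to 2 (inflammation, no filter).

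Signs turned only for differences that passed no threshold. With scaling and with quantile normalization these were OAS2 (0.12 and 0.14) and OASL (0.13 and 0.12) in 2017 minus 2014, OASL in 2018 minus 2014 (0.14 and 0.17) and in 2018 minus 2017 (0.00998 and 0.044), and OAS2 by cohort (-0.041 and -0.035). OASL by outcome was -0.0038 with scaling. With June 2017 only, OAS1 was -0.40 in 2017 minus 2014 and 0.20 in 2018 minus 2017, and OASL 0.019 in 2017 minus 2014. OAS1 in 2017 minus 2014 was -0.034 with a pseudocount of 0.1 and -0.10 with the animal block. With that pseudocount OASL between SAR years was 0.0055 and OAS1 minus OASL by pregnancy -0.020. With collection as a covariate the cohort difference was -0.11 for OAS2 and -0.052 for OASL, and within BAR the outcome difference of OAS2 was -0.11. The rho of OAS2 with OASL in BAR did not pass with scaling (0.23).

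Leaving out each library in turn, the site differences were 1.7 to 1.89 for OAS1, 0.80 to 1.05 for OAS2 and 0.93 to 1.16 for OASL, and all passed. The ranges that crossed 0, for OAS1, OAS2 and OASL in this order, were -0.18 to 0.18, -0.12 to 0.12 and -0.083 to 0.062 (2017 minus 2014), -0.40 to 0.069, -0.093 to 0.19 and -0.16 to 0.10 (2018 minus 2014), -0.40 to 0.044, -0.073 to 0.20 and -0.14 to 0.12 (2018 minus 2017), and -0.044 to 0.50, -0.27 to 0.16 and -0.13 to 0.29 (cohort). Others were OAS2 at -0.047 to 0.28 and OASL at -0.21 to 0.083 (September minus June 2017), OAS1 at -0.30 to 0.076 and OASL at -0.31 to 0.15 (SAR years), and OAS1 at -0.56 to 0.23 and OAS2 at -0.11 to 0.78 (outcome). The site differences of ratios were 0.74 to 1.03 (OAS1 minus OAS2), 0.64 to 0.93 (OAS1 minus OASL, permutation adjusted p = 0.034 without SAR May 2014 replicate 6) and -0.22 to 0.071 (OAS2 minus OASL).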

Other observations

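OAS1 was low in a minority of samples of both sites. In the ordered levels of the 76 samples, the largest ratio between neighbours lay between 1.303 and 2.47 FPKM (1.89-fold), with 7 of 60 BAR samples (0.162 to 1.12 FPKM) and 6 of 16 SAR samples (0.153 to 1.303 FPKM) below it. In these 13 samples OAS2 was 1.53 to 10.6 FPKM and OASL 2.17 to 9.57 FPKM, so neither was near 0 with OAS1. Other steps were of like size (1.81-fold from 0.162 to 0.293 FPKM and 1.73-fold from 54.9 to 94.8 FPKM), and on log2(FPKM + 1) the one at the top was wider (0.78 against 0.59), so the low samples were not set apart from the rest. One BAR animal lay on both sides of the step: its OAS1 was 8.38 FPKM in June 2014 and 0.293 FPKM in September 2017, while OAS2 was 5.37 and 3.03 FPKM and OASL 8.96 and 7.66 FPKM. The step was seen in the data and no test was made of it.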
